A study of Danio rerio with 8 samples.

Results

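The small nucleolar ribonucleoproteins (snoRNPs) and the nucleolar scaffold proteins were followed through 10 genes, chosen by function and matched by Ensembl zebrafish name, of 32520 genes in the count table. The box C/D group held 3 genes (fbl, nop56 and nop58), the box H/ACA group 4 (dkc1, gar1, nhp2 and nop10) and the scaffold group 3 (nolc1, ncl and npm1a). All 10 were among the 18549 genes that passed the filter on low counts. RNA was sequenced from zebrafish embryos at 3 days post fertilisation, with 4 libraries from ddx21 mutants and 4 from embryos labelled as siblings, numbered 1 to 4 in both groups. All of them carried the reporters Tg(fli1a:nEGFP), a nuclear green one driven by an endothelial promoter, and Tg(5.2lyve1b:DsRed), a red one driven by a venous and lymphatic promoter, and cells positive for both colours were sorted. The labels give neither the ddx21 allele, nor the genotype of the siblings, nor how many embryos went into a library, nor whether libraries of a group came from separate clutches. The p-values thus rest on the spread among these libraries, which may be technical in part.

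snoRNPs are the enzymes that modify ribosomal RNA in the nucleolus, each guided to its target base by a small nucleolar RNA. Box C/D particles add methyl groups to the ribose and box H/ACA particles turn uridine into pseudouridine, and both kinds also help to cut and fold the ribosomal precursor. The scaffold proteins bind snoRNPs, ribosomal RNA or ribosomal proteins and help to hold the nucleolus together, and dividing cells make much of them. Ddx21, an RNA helicase of the nucleolus, is known from human cells to bind small nucleolar RNAs and ribosomal RNA precursors. The question here was whether the messages for the protein side of these particles differ between ddx21 mutants and siblings.

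The libraries held from 38459219 to 51173007 counted reads. ddx21 itself stood at 245, 364, 337 and 301 CPM (read counts scaled to a common library size, with TMM factors) in siblings 1 to 4 and at 233, 266, 169.6 and 217 CPM in mutants 1 to 4. In each of the 4 pairs of the same number the mutant was lower, with a log2 fold change of -0.50 (SE 0.21, edgeR adjusted p = 0.9995 over all tested genes). The groups overlapped, with mutant 2 above sibling 1, and pair 1 differed by only -0.08 on the log2 scale. The share of tested genes lower in all 4 pairs is not given here. The 9 matched endothelial markers were at 0 in no library, and their summed level ran from 3008 to 5277 CPM in siblings and from 2315 to 4988 CPM in mutants. Epidermal markers were high as well: the 8 of them summed to 4598 to 51214 CPM in siblings and 6079 to 85827 CPM in mutants, with none at 0 in any library, so that the RNA was not endothelial alone. Whether the epidermal RNA came from sorted cells or was carried along with them was not tested. In such bulk RNA fewer cells of a type and less RNA per cell cannot be told apart.

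None of the 10 genes passed in edgeR over all tested genes, and neither did any other gene (0.0% called). The smallest unadjusted p among the 10 was 0.086, for nhp2, and none was under 0.05, where 1.33% of tested genes were higher and 1.67% lower in mutants. Of the 11354 genes that averaged 5 CPM or more, 231 were higher and 215 lower at that threshold. Fitted in edgeR with the replicate number as a block, again no gene passed (0.0% called). Of the 10 only nhp2 then had an unadjusted p under 0.05 and was higher. So were 2.98% of tested genes, and 526 of the 11354 that averaged 5 CPM or more. The fitted log2 fold change lay above 0 for 8 of the 10 genes, against 50.2% of tested genes and 54.3% of those averaging 5 CPM or more. Their median was 0.32, against 0.00 over all tested genes and 0.04 over the 11354 genes that averaged 5 CPM or more, of which the middle of the distribution (interquartile range) reached from -0.24 to 0.31. For each of the 10 the libraries of both groups overlapped, as they did for most tested genes. Only 1.42% of tested genes had all mutants above all siblings and 1.83% had all mutants below. Among the 11354 that averaged 5 CPM or more these were 207 and 167 genes.

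**Figure D1:**
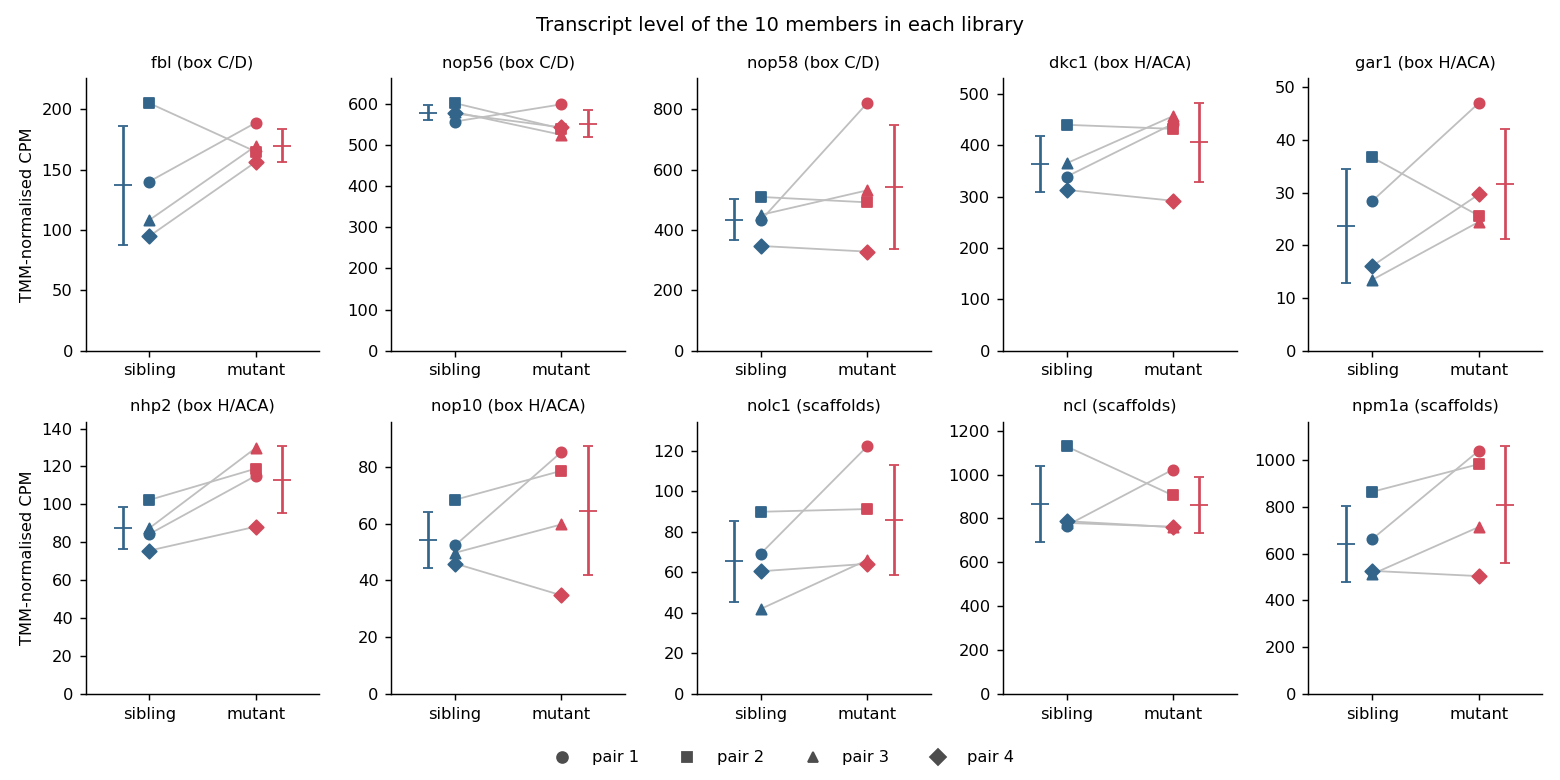
Level of each of the 10 genes in the 8 libraries, in TMM-normalised CPM on axes from 0. Points are libraries, grey lines join the sibling and mutant library of the same number, and the bars beside them give mean and SD (n = 4 each). The groups overlap in all 10 panels, nop56 keeps within 524 to 601 CPM, and mutant 1 is the highest library for nop58, gar1, nop10, nolc1 and npm1a.

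Of the box C/D proteins, the methyltransferase fibrillarin is encoded by fbl (ENSDARG00000053912). It measured 140.2, 205, 108 and 94.9 CPM in siblings 1 to 4 and 189, 165, 169.6 and 156 CPM in mutants 1 to 4. The mutants lay close together, inside the wider range of the siblings, and only sibling 2 stood above every mutant. Siblings averaged 137 ± 49.2 CPM and mutants 170.0 ± 13.8 CPM (SD, n = 4 each), with a log2 fold change of 0.31 (SE 0.25, 95% interval -0.25 to 0.87). It moved to 0.57 without sibling 2 and to 0.18 without sibling 4. The mutant was higher in pairs 1, 3 and 4, by 0.43, 0.65 and 0.72 on the log2 scale, and lower in pair 2, at -0.31.

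The other core subunits of that particle, nop56 and nop58, hold fibrillarin against the guide RNA. For nop56 (ENSDARG00000012820) the levels were 556, 601, 579 and 576 CPM in siblings 1 to 4 and 598, 539, 524 and 542 CPM in mutants 1 to 4. These libraries differed little in either group, with a coefficient of variation of 3.16% in siblings and 5.90% in mutants, and the highest library was 1.15 times the lowest. Mutants and siblings differed by -0.07 on the log2 scale (SE 0.16), with a 95% interval from -0.42 to 0.28, so that a fold beyond 0.75 or 1.22 lay outside it. The fit also draws on the spread of other genes, so this interval does not rest on the spread of nop56 alone.

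Its partner nop58 (ENSDARG00000104353) stood at 432, 509.6, 450.2 and 347 CPM in siblings 1 to 4 and at 820.3, 492, 531 and 328 CPM in mutants 1 to 4. Mutant 1 stood far above the other libraries and mutant 4 was the lowest of all. The log2 fold change was 0.32 (SE 0.27), and 0.06 without mutant 1 or 0.51 without mutant 4. Within pairs the mutant was higher in pairs 1 and 3 (0.92 and 0.24) and lower in pairs 2 and 4 (-0.05 and -0.08).

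Among the box H/ACA proteins, dkc1 (ENSDARG00000016484) encodes dyskerin, the pseudouridine synthase, whose human gene is mutated in dyskeratosis congenita and which also binds telomerase RNA. It measured 339, 440.0, 365 and 313 CPM in siblings 1 to 4 and 442, 432, 457 and 292 CPM in mutants 1 to 4. Mutants 1 to 3 lay close to each other and to sibling 2, while mutant 4 lay below every sibling. The log2 fold change was 0.16 (SE 0.21, 95% interval -0.31 to 0.62), with 0.29 when mutant 4 was left out and 0.10 when sibling 4 was.

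The gene gar1 (ENSDARG00000076526) encodes a subunit with glycine and arginine repeats that joins the particle late in its assembly. It had the fewest reads of the 10, with 661 to 1961 per library, which puts the counting error of the lowest library at 3.89%. The levels were 28.4, 36.7, 13.5 and 16.1 CPM in siblings 1 to 4 and 47.0, 25.6, 24.4 and 29.6 CPM in mutants 1 to 4. Siblings 3 and 4 were the lowest libraries and mutant 1 the highest, a spread of 3.49 times that was the widest of the 10 genes. The log2 fold change was 0.42 (SE 0.38, 95% interval -0.42 to 1.26), the largest of the 10 and the one with the largest error. Without mutants 1 and 4 and sibling 4, the libraries with the lowest quality weights in limma-voom, it was -0.05. Of single libraries, leaving out mutant 1 gave 0.18 and leaving out sibling 2 gave 0.71.

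For nhp2 (ENSDARG00000069422), whose product is a core RNA-binding subunit, the levels were 84.3, 102, 87.4 and 75.6 CPM in siblings 1 to 4 and 115, 119, 129.7 and 88.2 CPM in mutants 1 to 4. Mutants 1, 2 and 3 stood above every sibling, and mutant 4 stood above 3 of the 4. Siblings averaged 87.4 ± 11.1 CPM and mutants 113 ± 17.6 CPM (SD, n = 4 each), with a log2 fold change of 0.37 (SE 0.19, 95% interval -0.06 to 0.80). The mutant was higher in 4 of 4 pairs, by 0.45, 0.21, 0.57 and 0.22 on the log2 scale. With the block the value was 0.36 (SE 0.15, 95% interval 0.01 to 0.72, edgeR adjusted p = 0.84).

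The smallest core protein, which bridges dyskerin and the nhp2 product, is encoded by nop10 (ENSDARG00000104227). It measured 52.3, 68.4, 49.7 and 45.9 CPM in siblings 1 to 4 and 85.2, 78.6, 59.7 and 34.7 CPM in mutants 1 to 4. The mutants spread more widely than the siblings, with mutants 1 and 2 above every sibling and mutant 4 below every sibling. Its fitted log2 fold change came to 0.26 (SE 0.29), and 0.10 without mutant 1 or 0.47 without mutant 4.

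Of the scaffolds, nolc1 (ENSDARG00000024561) encodes Nopp140, a phosphoprotein that escorts snoRNPs between the nucleolus and Cajal bodies. It stood at 69.3, 90.0, 42.0 and 60.6 CPM in siblings 1 to 4 and at 122, 91.3, 66.1 and 64.3 CPM in mutants 1 to 4. Mutant 1 was the highest and sibling 3 the lowest, and the other libraries of both groups were interleaved. The log2 fold change was 0.39 (SE 0.29, 95% interval -0.26 to 1.05), or 0.18 without mutant 1 and 0.59 without sibling 2. The mutant was higher in 4 of 4 pairs, but by only 0.02 and 0.08 in pairs 2 and 4, against 0.81 and 0.65 in pairs 1 and 3. With nhp2 this made 2 of the 10 genes higher in all 4 pairs, where 8.0% of tested genes were. Of the 11354 genes that averaged 5 CPM or more, 1202 were.

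Nucleolin, an abundant RNA-binding protein of the nucleolus, is encoded by ncl (ENSDARG00000002710). The levels were 767, 1128, 779.6 and 787 CPM in siblings 1 to 4 and 1023, 905, 762 and 760.2 CPM in mutants 1 to 4. Sibling 2 stood apart above the other siblings, and mutants 3 and 4 matched siblings 1, 3 and 4. Siblings averaged 866 ± 175 CPM and mutants 862 ± 127 CPM (SD, n = 4 each), with a log2 fold change of -0.01 (SE 0.20, 95% interval -0.46 to 0.45), which became 0.15 without sibling 2 and -0.09 without mutant 1.

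The gene npm1a (ENSDARG00000014329) encodes a zebrafish nucleophosmin, the histone and ribosomal protein chaperone that lines the outer nucleolus and, in human cells, is a partner of the p53 pathway. It measured 662, 864, 512 and 526 CPM in siblings 1 to 4 and 1039.6, 982, 714 and 504 CPM in mutants 1 to 4. The libraries numbered 1 and 2 were above those numbered 3 and 4 in both groups. The log2 fold change was 0.34 (SE 0.28), and 0.31 with the block (SE 0.15, 95% interval -0.04 to 0.67). Without the block, leaving out mutant 1 gave 0.20 and leaving out sibling 2 gave 0.52. The second zebrafish copy, npm1b (ENSDARG00000037675), had 72.0, 28.5, 45.7 and 19.9 CPM in siblings 1 to 4 and 45.6, 31.1, 37.0 and 35.6 CPM in mutants 1 to 4, a log2 fold change of -0.15 (SE 0.37).

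**Figure D2:**
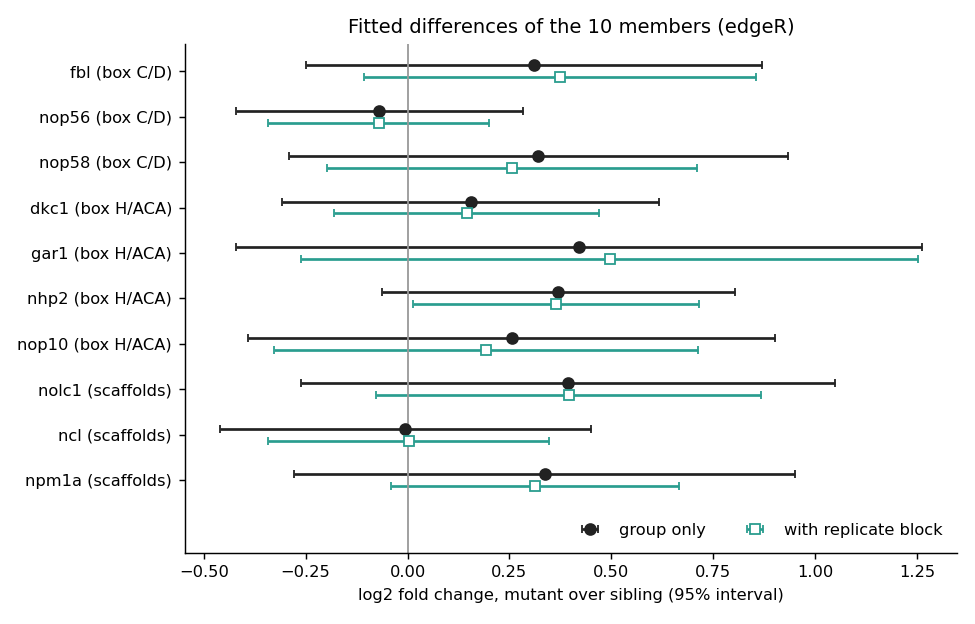
Fitted log2 fold change of mutant over sibling for the 10 genes, with 95% intervals, from edgeR with the group alone (filled circles) and with the replicate block (open squares). Every interval without the block includes 0, and with the block that of nhp2, from 0.01 to 0.72, is the exception.

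The median log2 fold changes of the 3 groups were close, at 0.31 for box C/D, 0.31 for box H/ACA and 0.34 for the scaffolds. Above 0 were 2 of 3, 4 of 4 and 2 of 3 values. Single genes ranged from -0.07 to 0.32 in box C/D, 0.16 to 0.42 in box H/ACA and -0.01 to 0.39 in the scaffolds. To set the groups side by side within a library, log2(CPM + 0.5) of each gene was centred on its mean over the 8 libraries and averaged over a group. On this scale box C/D averaged -0.09 ± 0.24 in siblings against 0.09 ± 0.24 in mutants (mean ± SD of 4 libraries). Box H/ACA stood at -0.15 ± 0.30 and 0.15 ± 0.30, and the scaffolds at -0.12 ± 0.34 and 0.12 ± 0.36. Box C/D less box H/ACA was higher in the mutant of 1 of 4 pairs. Its shift from siblings to mutants was -0.11, with an SD of 0.09 in siblings and 0.11 in mutants. The corresponding value was -0.05 between box C/D and scaffolds and 0.06 between box H/ACA and scaffolds, both smaller than their SDs within a group (0.12 to 0.20). No test was made of such group scores, because the genes were chosen with results known.

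Libraries of 1 group differed among themselves as much as the groups did. The mean of all 10 centred values was -0.09, 0.27, -0.32 and -0.35 in siblings 1 to 4 and 0.47, 0.19, 0.06 and -0.24 in mutants 1 to 4, with an SD of 0.29 in each group and a difference of 0.24 between the group means. In pair 1 all 10 genes were higher in the mutant (45.4% of tested genes were), and the mean difference was 0.56 on the log2 scale. In pair 3 there were 8 of 10 (50.4% of tested genes) and a mean difference of 0.38. In pairs 2 and 4 only 4 of 10 were higher (50.9% and 46.2% of tested genes), with mean differences of -0.08 and 0.11. Pairs 1 and 3 thus held most of the difference. Siblings 1 and 2 both stood above siblings 3 and 4, and mutants 1 and 2 above mutants 3 and 4, for nop10, nolc1 and npm1a, or 3 of the 10 genes, against 9.12% of tested genes.

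Markers of other cells also differed between libraries. Epidermal markers summed to 32514, 51214, 10486 and 4598 CPM in siblings 1 to 4 and to 85827, 61299, 13365 and 6079 CPM in mutants 1 to 4. Their sum was higher in the mutant of each pair, and, like the mean of the 10 genes, it was highest in mutant 1 and lowest in sibling 4. In pair 2, however, the mean of the 10 genes was lower in the mutant (0.19 against 0.27). Endothelial markers ran the other way, at 3104, 3008, 4856 and 5277 CPM in siblings 1 to 4 and 2315, 2849, 4007 and 4988 CPM in mutants 1 to 4. Liver and yolk markers summed to 2474, 3185, 679 and 1421 CPM in siblings and to 54.9, 148, 289 and 219 CPM in mutants 1 to 4, with 4 of the 10 at 0 in mutant 1 and 3 in mutant 4. They were thus lowest in mutant 1, where the 10 genes were highest. Among the siblings, though, liver and yolk markers and the 10 genes were both highest in sibling 2. Muscle markers summed to 1035 to 4833 CPM in siblings and 1716 to 6068 CPM in mutants, leukocyte markers to 123 to 161 and 113 to 239 CPM, and erythroid markers to 338 to 1188 and 257 to 709 CPM. The muscle sum was highest in mutant 2 and next in sibling 4, the library where the 10 genes were lowest, and the erythroid sum was lowest in mutant 1. The part of these cells in the levels of the 10 genes was not tested.

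**Figure D3:**
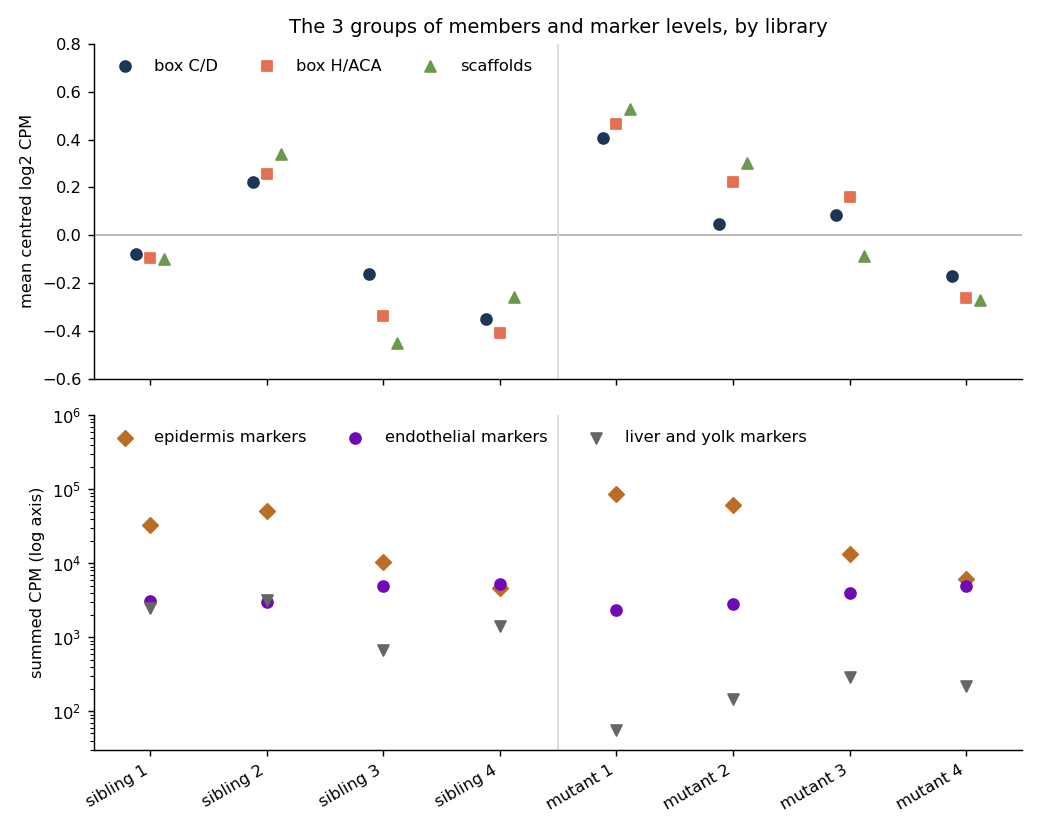
Upper panel: mean centred log2 CPM of the 3 groups of genes in each library. Lower panel: summed CPM of epidermal, endothelial and liver and yolk markers on a log axis, with siblings left and mutants right of the grey line. All 3 groups are highest in mutant 1, at 0.41 to 0.53, where the epidermal sum is highest too, and endothelial markers are lowest there.

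Ratios between partner transcripts were taken within each library from log2(CPM + 0.5). There the scaling of a library cancels except for the 0.5 added to each CPM. They serve to compare libraries and not the amounts of the partners, since transcript lengths were not used here. Relative to dkc1, nhp2 varied least: the log2 ratio was -2.001, -2.10, -2.06 and -2.04 in siblings 1 to 4 and -1.94, -1.86, -1.81 and -1.72 in mutants 1 to 4. Every mutant library thus stood above every sibling library, by a mean of 0.22 (-2.05 ± 0.04 against -1.83 ± 0.09, SD, n = 4 each). Of the 10 ratios computed this was the only one without overlap, and over all tested genes 0.512% had a ratio to dkc1 with every mutant above every sibling and 2.54% with every mutant below. It is given as a description, chosen after its values were seen, and no test was made of it.

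Other partners kept their proportions less closely. The log2 ratio of gar1 to dkc1 spanned 1.49 over the 8 libraries and that of nop10 to dkc1 0.69, with nop10 high in mutants 1 and 2 (-2.37 and -2.45) and low in mutants 3 and 4 (-2.92 and -3.05). For fbl relative to nop56 the mutants lay between -1.79 and -1.62, while the siblings reached from -2.59 to -1.55. The ratio of nop58 to nop56 was higher in the mutant of 4 of 4 pairs (11.0% of tested genes had a ratio to nop56 that was), but by only 0.01 in pair 4, since siblings and mutants 4 stood at -0.73 and -0.72. The ratio of nolc1 to ncl was also higher in 4 of 4 pairs (7.57% of tested genes had such a ratio to ncl), with -3.75 ± 0.32 in siblings against -3.36 ± 0.23 for the mutants (SD over 4 libraries). For npm1a relative to ncl it was higher in pairs 1 to 3, at -0.45 ± 0.18 and -0.14 ± 0.32.

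**Figure D4:**
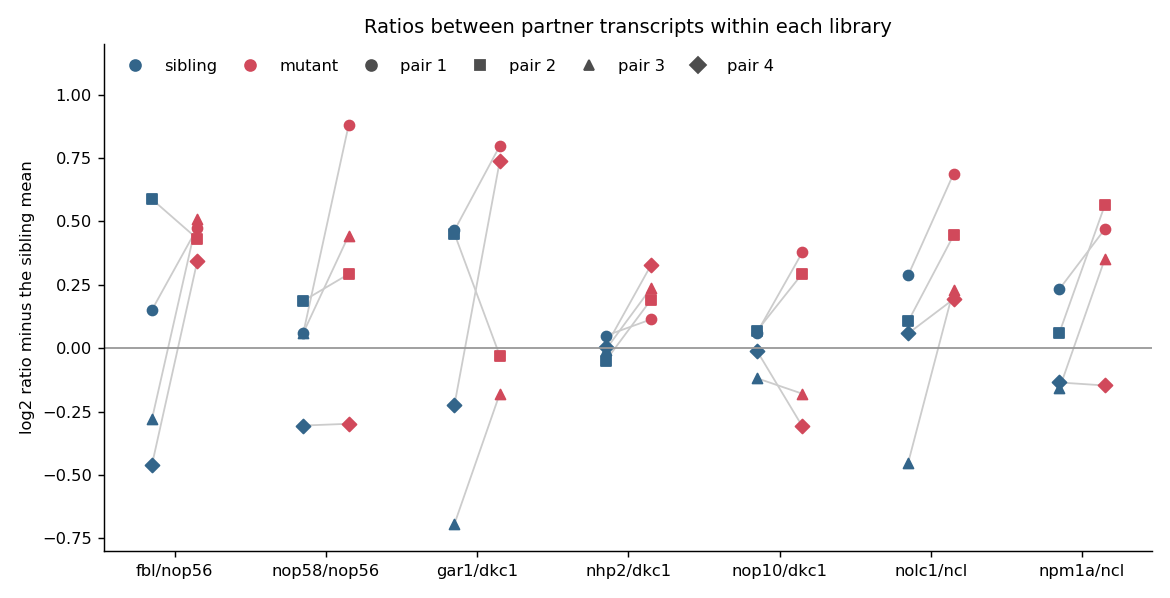
Log2 ratio of partner transcripts in each library, less the sibling mean of that ratio. Colours give the group, symbols the pair, and grey lines join a pair. Only nhp2/dkc1 has all 4 mutants above all 4 siblings, with the siblings within an SD of 0.04, whereas gar1/dkc1 spans 1.49.

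Related genes outside the 10 were taken from 3 lists. The U3 snoRNP is the box C/D particle that docks on the ribosomal precursor. Its proteins and those that join it there had a median log2 fold change of 0.46 over 11 measured genes. Of these 11, 9 were above 0 (50.2% of tested genes were, 54.3% of those averaging 5 CPM or more). None of the 11 passed over all genes. At an unadjusted p under 0.05, 3 were higher and 0 lower, where 1.33% and 1.67% of tested genes stood. Among the 11354 that averaged 5 CPM or more, 231 were higher and 215 lower. The smallest p belonged to utp3, at 18.1, 35.5, 32.9 and 23.9 CPM in siblings 1 to 4 and 33.8, 61.0, 51.2 and 38.9 CPM in mutants 1 to 4 (log2 0.74, SE 0.30). It was higher in 4 of 4 pairs by 0.63 to 0.88. Next was IMP3, a subunit of the U3 particle, at 20.9 ± 6.25 and 37.7 ± 13.2 CPM (SD, n = 4 each; log2 0.85, SE 0.34). Of these 11 genes 7 were higher in 4 of 4 pairs, as were 2 of the 20 and 6 of the 26 on the lists that follow. So were 8.0% of tested genes and 1202 of the 11354 that averaged 5 CPM or more. One of the 11, DCAF13, had all mutants above all siblings, with a log2 fold change of 0.53 (SE 0.24). So had 1.42% of tested genes and 207 of the 11354 that averaged 5 CPM or more. The genes of this list not above 0 were RRP9 (log2 -0.04, SE 0.35) and MPHOSPH10 (log2 -0.03, SE 0.20). They were higher in the mutant in 2 and 1 of 4 pairs. Fitted in edgeR with the replicate block, 4 of the 11 were higher and 0 lower at an unadjusted p under 0.05. In that fit 552 of the 18549 tested genes were higher and 534 lower. Of the 11354 that averaged 5 CPM or more, 526 were higher and 409 lower.

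Factors that assemble and carry snoRNPs had a median of 0.17 over 20 measured genes. Of these, 14 were above 0 (50.2% of tested genes, 54.3% of those averaging 5 CPM or more). None of the 20 had an unadjusted p under 0.05 in either direction (1.33% higher and 1.67% lower of tested genes). Among the 11354 that averaged 5 CPM or more, 231 were higher and 215 lower. With the replicate block there were again 0 of the 20 in either direction (526 higher and 409 lower of the 11354). Without the block, the smallest p belonged to naf1, which precedes gar1 in the immature box H/ACA particle. It stood at 21.4, 32.8, 22.9 and 28.4 CPM in siblings 1 to 4 and 64.6, 30.4, 34.1 and 29.3 CPM in mutants 1 to 4 (log2 0.58, SE 0.31), with mutant 1 far above the rest. RUVBL1, an ATPase of the assembly machinery, followed at 49.0 ± 10.9 and 65.3 ± 15.6 CPM (log2 0.42, SE 0.25; SD, n = 4 each). Both genes named SNU13, which encodes the fourth core protein of box C/D particles, were measured, at 87.8 ± 17.1 and 106 ± 42.0 CPM for ENSDARG00000023299 (log2 0.27, SE 0.33) and at 14.1 ± 3.62 and 14.1 ± 2.37 CPM for ENSDARG00000069878 (log2 -0.005, SE 0.33; SD, n = 4 each).

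Other proteins of the nucleolus and Cajal body had a median of 0.12 over 26 measured genes. Of these, 19 were above 0 (50.2% of tested genes, 54.3% of those averaging 5 CPM or more). None of the 26 passed over all genes. Among the 11354 genes that averaged 5 CPM or more, 231 were higher and 215 lower at an unadjusted p under 0.05. Of the 26 there were 1 higher and 0 lower, against 1.33% and 1.67% of tested genes. The gene with that p was PES1, of a complex that matures the large subunit, at 75.3, 90.0, 95.3 and 78.0 CPM in siblings 1 to 4 and 167, 107, 152 and 113 CPM in mutants 1 to 4. All 4 mutants stood above all 4 siblings, with a log2 fold change of 0.67 (SE 0.21), and it did not pass (edgeR adjusted p = 0.9995). One of the genes named SET (ENSDARG00000031495) also had all mutants above all siblings. It stood at 562 ± 30.1 and 680 ± 55.6 CPM (SD, n = 4 each), with log2 0.27 (SE 0.16). That makes 2 of the 26, where 1.42% of tested genes did so, and 207 of the 11354 that averaged 5 CPM or more. In the other gene named SET (ENSDARG00000003920) the groups overlapped, at 433 ± 22.2 and 488 ± 58.3 CPM (log2 0.17, SE 0.17). FTSJ3, a methyltransferase of ribosome assembly, followed at 24.9 ± 6.25 and 35.9 ± 5.21 CPM (SD, n = 4 each; log2 0.53, SE 0.26). Fitted in edgeR with the replicate block, 3 of the 26 were higher and 1 lower at an unadjusted p under 0.05. Those higher were PES1, npm3 and SET (ENSDARG00000031495), and the lower one was nop53 (log2 -0.43, SE 0.16). Of the 11354 genes that averaged 5 CPM or more, 526 were higher and 409 lower in that fit.

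**Figure D5:**
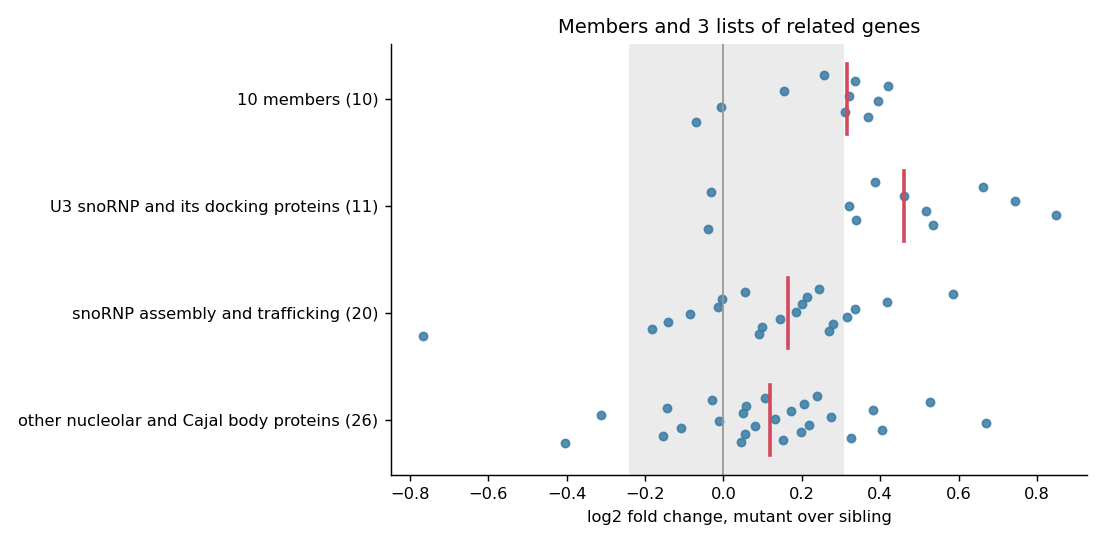
Fitted log2 fold change of each measured gene of the 10 and of the 3 related lists. Red lines are medians, the number of genes stands in brackets, and the grey band is the interquartile range of the 11354 tested genes that averaged 5 CPM or more. The U3 list has the highest median, 0.46, against 0.32 for the 10 genes.

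The genes most like the 10 in their pattern were sought among the other tested genes that averaged 5 CPM or more, by Pearson's r of log2(CPM + 0.5) with the mean centred value of the 10 over the 8 libraries. The closest were DENND2D (r = 0.97), si:dkeyp-113d7.10 (0.97), GLTP (0.96), MOGAT1 (0.95) and st14 (0.95), the last a membrane protease of epithelia. For st14 the levels were 11.8, 30.3, 5.68 and 2.43 CPM in siblings 1 to 4 and 37.8, 26.8, 9.84 and 4.16 CPM in mutants 1 to 4. Over all genes of that level the 95th percentile of r was 0.80, and 101 of 11354 had an r above 0.9. Of the 10 genes themselves npm1a came closest (0.96) and nop56 was farthest (0.25), but each of them is part of the mean it is set against, which raises its r. The epidermal keratin krt4 gave 0.90, epcam, also on the epidermal list, 0.86 and the endothelial factor FLI1 -0.87. The median r over genes of that level was -0.002. Both krt4 and epcam are part of the epidermal sum above, and r of the other markers is not given. For ddx21 r was -0.13. The r values describe 8 libraries that come in pairs and differ in their markers of other cells, and the part of either in r was not tested.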

How the data were processed

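The authors deposited raw counts per Ensembl gene for 32520 genes in 8 libraries. The submitters' processing notes name GRCz11 as the build and list Subread 2.0.0, FastQC, edgeR and featureCounts, without their order. Of strand setting and annotation release nothing is given in these sources. The other deposited table, labelled as batch-corrected log2 CPM, equalled log2(CPM + 1) of these counts (largest difference 5e-14) and was used only as an alternative.

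All other values were computed here. Groups and replicate numbers came from the titles. Counts were filtered (filterByExpr, minimum count 10, minimum total 15), scaled by TMM and fitted with edgeR 4.0.16 in R 4.3.3 (robust quasi-likelihood, group as the only term), with Benjamini-Hochberg adjustment over 18549 genes and a threshold of 0.05. SE, p and 95% intervals come from that fit, which draws on the spread of other genes as well as that of the gene itself. Tested on simulated counts, the fit returned the fold sizes put in. Those were larger than any fitted for the 10 genes, and no pairs were simulated. Recovery at the sizes seen here was thus not tested. Alternatives were RLE factors, library totals, no filter, DESeq2 1.42.0, limma 3.58.1 (voom with quality weights, and on the log2 values), the replicate block and left-out libraries. Same-numbered libraries deviated together in each pair (r = 0.22, 0.28, 0.18 and 0.30 across genes), so the numbers were taken to pair the libraries. Each library had its highest r with its own number. Positive values were also seen for sibling 1 with mutant 2 (0.15), sibling 2 with mutant 1 (0.15) and sibling 3 with mutant 4 (0.10). Likeness thus went beyond the pairs. The main fit left the pairing out. The blocked fit is given beside it for the 10 genes, and for the related lists mainly as counts of small p. Libraries of the same group differed by more than sampling noise (their chi-square was 112 to 852 for each degree of freedom) and each counted as 1 replicate. Counting error is small at these depths, and intervals for it cover reads, not molecules.

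The 10 genes, the lists and the tests were chosen with earlier results of these data known. Named genes were the 10, ddx21, npm1b, the 2 genes of each related list with the smallest p and the 5 with the most similar pattern. SNU13, SET, DCAF13, RRP9, MPHOSPH10, npm3, nop53, the marker sums, krt4, epcam and FLI1 and the ratios were added after that rule. Of 24, 12 and 30 symbols on the related lists 20, 11 and 27 matched an identifier, and 20, 11 and 26 identifiers were tested. Reads of copies alike in sequence, and of genes that overlap on either strand, may be split or lost. How alike npm1a and npm1b are, or the SNU13 genes, was not tested.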

Additional observations from a re-analysis of the deposited data

Results flagged for a closer look

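Of 32 groups of 4 libraries examined with Dixon's ratio at its 95% critical value, 2 were flagged, where chance flags about 1 in 20. For ncl in siblings, sibling 2 at 1128 CPM stood apart above the other siblings, with a ratio of 0.944. For dkc1 in mutants, mutant 4 at 292 CPM stood apart below the other mutants, with a ratio of 0.85.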

How the results depend on the processing

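None of the 10 genes passed under any of the 17 alternatives (smallest adjusted p 0.322, for nhp2), and in 164 of the 170 values the direction was kept. The 6 others were gar1, at -0.048 without mutants 1 and 4 and sibling 4, and ncl, whose log2 fold change of about 0 was 0.0026 with the replicate block, 0.0098 with limma on the deposited values, and ran from -0.092 to 0.149 when single libraries were left out. The median of the 10 genes stayed above 0 throughout (0.15 to 0.46), lowest without mutant 1 and highest without mutant 4. Leaving out 1 library at a time, the medians ran from 0.06 to 0.41 for box C/D, from 0.15 to 0.46 for box H/ACA and from 0.18 to 0.52 for the scaffolds, lowest in each case without mutant 1. Over all genes edgeR called 0, with and without the replicate block and without any single library. An unadjusted p under 0.05 was found for 556 genes without the block and for 1086 with it. DESeq2 called 62, and 526 with the replicate block, limma on the deposited values 2 and edgeR without the filter 1, and the cause was not tested. The block changed no call among the 10 genes. Without the filter the median of all genes was -0.11, while that of the 10 stayed within the range above. Each of the 10 had 661 reads or more in each library, but 18051 to 25329 genes had reads, with 18064, 19366 and 18051 in sibling 4 and mutants 1 and 4, and how many molecules the reads stand for was not tested.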
